A study of Mus musculus with 4 samples.

Results

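Messenger RNAs of the cell cycle and of DNA replication were followed in liver and spleen of mice on 2 diets. The set holds 39 genes, taken as a fixed list of names: every array probe that carries the name of a member was collected (the name Cdc2a counted as Cdk1) and the brightest probe per gene was used. All 39 members were on the array, through 61 probes, among 27670 gene labels in all, and 18 of them had several probes. The study asked how dietary nucleoprotein (NP), a preparation of nucleic acids bound to protein, alters gene expression in the 2 tissues. Male C57BL/6J mice aged 13 weeks received for 4 weeks a purified diet poor in nucleic acids (0.03%, called low NP) or that diet supplemented with 1.2% NP, which brought nucleic acids to 0.5%. RNA was pooled per diet and tissue, from an unstated number of mice. The arrays of a tissue were taken here to hold 1 pool per diet, so 4 pools in all, although the labels number the pooled samples 1 and 2 and separate pools per array remain possible. The low NP and NP pools of a tissue were set against each other on 2 two-colour Agilent whole mouse genome arrays of opposite dye orientation, array 1 with NP in Cy5 and array 2 with NP in Cy3.

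A cell that is about to divide first licenses its replication origins: Cdc6 and Cdt1 load the Mcm2 to Mcm7 helicase, and geminin (Gmnn) blocks Cdt1 once replication has begun. Genes of this phase are switched on by E2F factors, while genes of G2 and mitosis are switched on later by FoxM1 and B-Myb through promoter elements called CHR (cell cycle homology region). Many promoters of these later genes also hold CCAAT boxes. Adult hepatocytes are mostly resting, whereas the mouse spleen holds dividing lymphocytes and red cell precursors. In RNA of a whole organ, fewer dividing cells and less RNA per cell cannot be told apart.

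In liver, most RNAs of the set had lower ratios than other genes, with a median log2 ratio of NP over low NP of -0.63 (-0.27 on array 1 and -0.98 on array 2). Marker genes of B cells, T cells and exocrine pancreas were lower still in liver, with medians of -2.10, -2.06 and -1.05. Low NP spleen in turn held more RNA of hepatocyte markers than NP spleen. Whether the low NP pools held RNA of another tissue was not tested, and this limits what each ratio of NP over low NP means. In spleen the members' median was 0.19, which centring on the array median turned to -0.0105. Of 37 members measured in liver, 6 were at least 1.5-fold lower on both arrays: the helicase subunit Mcm6, the mitotic cyclin Ccnb2, the anaphase activator Cdc20, survivin (Birc5), the kinetochore motor Cenpe and the proliferation antigen Mki67. None was higher. The share of all measured genes called lower in liver was 3.65%, and among genes whose level in NP spleen was at least 2-fold that in low NP liver it was 22.5%, against 18.2% of the members with such a gap. In spleen none of 39 was called, against 6.35% of all measured genes lower and 0.0434% higher. On the NP diet 33 of the 39 (84.6%, against 15.1% of all genes) had a level at least 2-fold higher in spleen than in liver.

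The promoters of 4 of the 6 called genes, those with at least 3 matches to the elements just named, show how these elements are arranged. Each sequence is the 250 bases upstream of the gene's start in RefSeq, build GRCm38.p6, read on the gene's strand from 5′ to 3′. Capitals mark TTTGAA (a CHR), CCAAT or its reverse complement ATTGG, and the E2F-type letters TTTGGCGC with the overlapping reverse match GCGCGAAA. They lie at chr1:128359706-128359955, chr7:135716380-135716629, chr9:70421555-70421804 and chr4:118437344-118437593, all on the minus strand.
Mcm6: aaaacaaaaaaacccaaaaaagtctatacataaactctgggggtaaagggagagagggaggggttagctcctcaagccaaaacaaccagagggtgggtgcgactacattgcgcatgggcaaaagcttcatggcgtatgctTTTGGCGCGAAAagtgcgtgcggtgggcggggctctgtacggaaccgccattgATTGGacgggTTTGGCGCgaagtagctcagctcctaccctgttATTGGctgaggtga
Mki67: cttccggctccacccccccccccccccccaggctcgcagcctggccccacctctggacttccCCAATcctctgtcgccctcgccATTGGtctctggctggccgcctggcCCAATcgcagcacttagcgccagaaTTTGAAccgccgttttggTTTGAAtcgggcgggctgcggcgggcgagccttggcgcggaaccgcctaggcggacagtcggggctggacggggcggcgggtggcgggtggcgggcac
Ccnb2: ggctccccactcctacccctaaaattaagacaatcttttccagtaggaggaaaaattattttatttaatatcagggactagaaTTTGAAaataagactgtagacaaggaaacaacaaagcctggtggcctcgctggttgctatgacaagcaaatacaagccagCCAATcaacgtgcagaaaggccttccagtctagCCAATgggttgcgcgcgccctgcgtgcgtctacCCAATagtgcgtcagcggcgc
Cdc20: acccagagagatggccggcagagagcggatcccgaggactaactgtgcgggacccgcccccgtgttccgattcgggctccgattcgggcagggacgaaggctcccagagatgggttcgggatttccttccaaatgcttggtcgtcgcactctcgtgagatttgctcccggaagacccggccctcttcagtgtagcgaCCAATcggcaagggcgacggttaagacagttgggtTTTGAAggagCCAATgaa

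Mcm6, a gene of S phase entry, held 3 matches to the E2F-type letters and 2 CCAAT boxes. Mki67 held 2 CHR and 3 CCAAT matches, Ccnb2 held 1 and 3, and Cdc20 held 1 and 2. Over the 31 members with a promoter in the table, CCAAT was found in 24 (77.4%), against 34.5% of 27025 genes. At least 2 copies were found in 16 (51.6%), against 10.5% of genes. A CHR (TTTGAA or TTTAAA, either strand) was found in 15 (48.4%) against 25.5% of genes, and in 13 (41.9%) together with CCAAT against 9.0%. The E2F-type letters searched were TTTCCCGC, TTTGGCGC, TTTCGCGC and TTTGCCGC on both strands. They were found in 5 members (16.1%), namely Cdc6, Cdk1, Mcm5, Mcm6 and Mcm7, against 1.9% of genes. These are matches of letters in a window and were not tested as binding sites. The members not matched to a promoter were Aurkb, Gmnn, Tpx2, Mcm4, Foxm1, Ccna2, Ccne2 and Kif20a.

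Ratios are log2 of NP over low NP after background correction and loess, and the ± value is the distance of each array from the mean of both. To count as measured in a tissue, a probe had to be well above background in 1 channel or more of each array. It was called when both arrays passed 1.5-fold in the same direction. Since the arrays were taken as a dye swap of 1 pair of pools, the diet was not tested, and the spread given is that between arrays. Pools or groups said to overlap or not are compared by the signals of 2 arrays each, and this was not tested. Each array held 45018 spots, and between 59.3% and 94.8% of probes were well above background. Spleen array 1 stood apart: the median signal of its negative controls was 156.0 (Cy3) and 307.3 (Cy5), while spleen array 2 had 62.7 and 71.9. The spleen results on the whole set are therefore also given for each array, and other spleen values as means over both. The number of arrays limits the precision of every value.

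In liver, 3.65% of 16975 measured genes were called lower and 0.0707% higher. Of the 37 measured members, 6 (16.2%) were lower. Below 0 on both arrays were 35 members (94.6%), against 30.8% of all measured genes. The exceptions were Gmnn and Cenpa, which were above 0 on array 1. The median ratio of the members was -0.63 ± 0.36, and that of all measured genes was 0.00. The distance between arrays was large: the members' median was -0.27 on array 1 and -0.98 on array 2, and all 37 had a lower ratio on array 2, as did 65.7% of all measured genes. On array 1 alone 6 members were at least 1.5-fold lower (4.12% of all genes), on array 2 alone 29 (11.3% of all genes). Ttk, a spindle checkpoint kinase, and Kif11, a spindle motor, were not measured in liver.

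**Figure D1:**
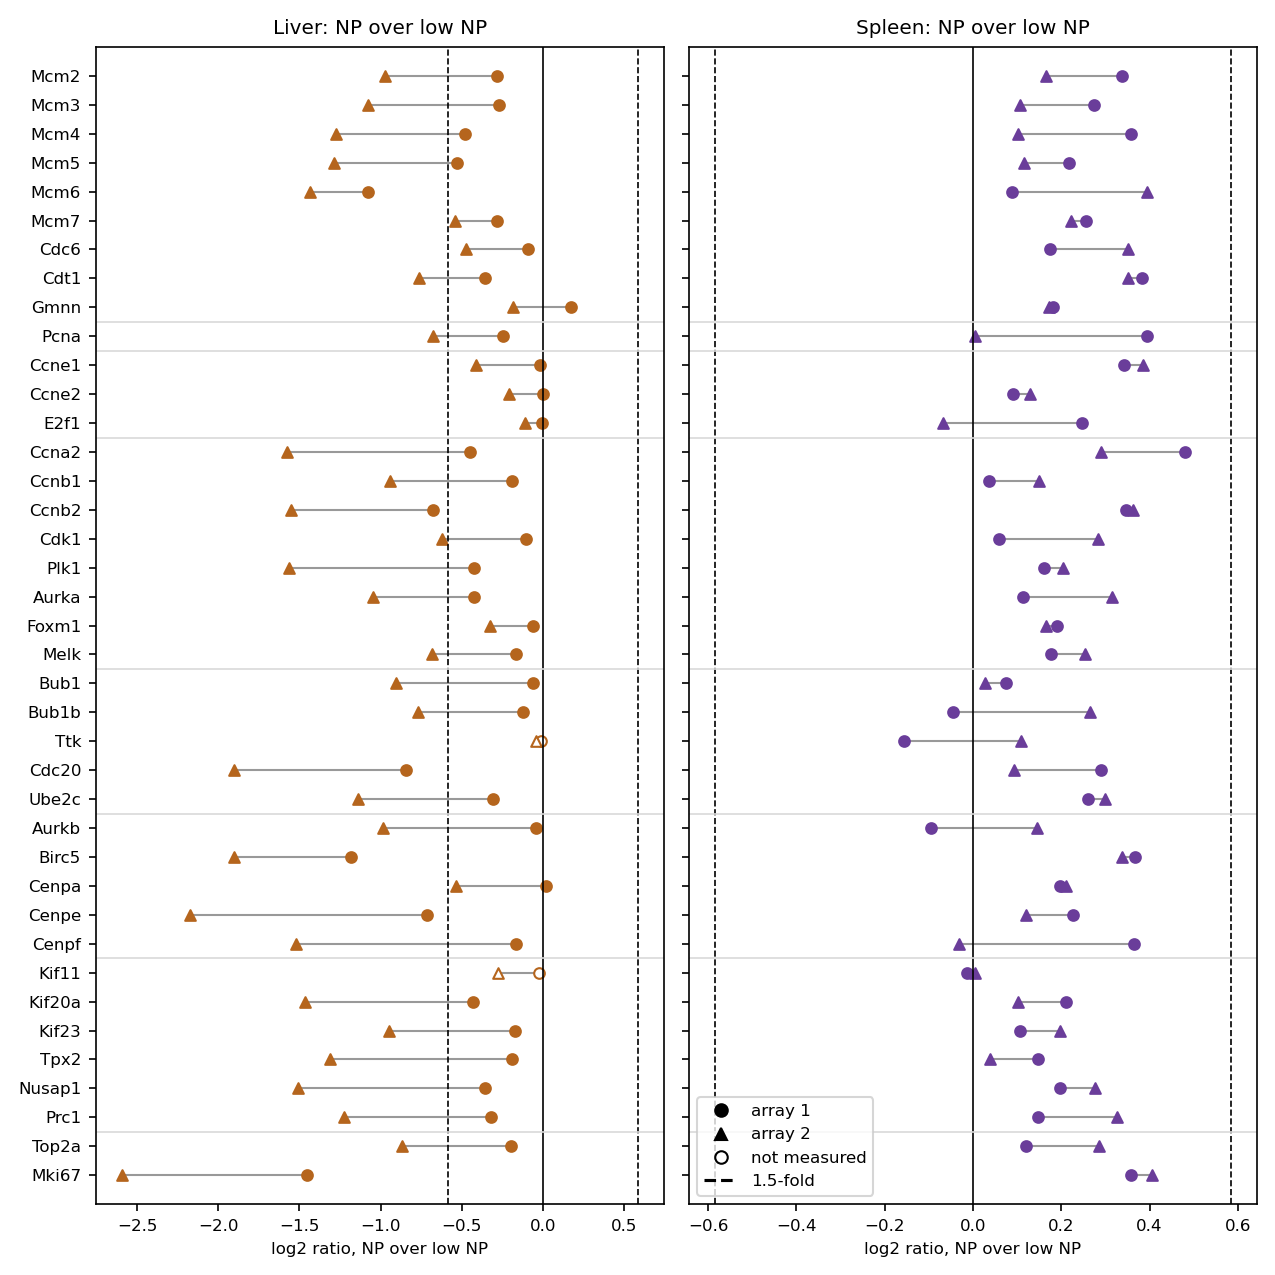
Log2 ratios of NP over low NP for the 39 members in liver (left) and spleen (right), with circles for array 1, triangles for array 2, open symbols where the gene was not measured, and dashed lines at 1.5-fold. The 6 called members lie left of the lower dashed line on both liver arrays, and no member passes a dashed line on both spleen arrays.

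The count of called members depended on the processing. It was 23 without background correction (7.82% of all genes), 28 with the scanner software's own processed signals (10.3%) and 28 in the authors' deposited table (10.3%), each including the 6. The members' liver median was -1.51 with the processed signals. The count was 2, Birc5 and Mki67, when arrays were centred on their median without loess (1.91%). With other thresholds it was 12 at 1.3-fold (5.9% of all genes) and 3 at 2-fold (1.74%). No member was called higher in liver under these settings.

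Among the origin licensing genes, Mcm6 was called and the other 8 were not. The helicase subunit Mcm6 (probe at chr1:128211735-128211794 in mm7) had normalized log2 signals of 11.45 and 11.38 in NP liver on arrays 1 and 2, against 12.53 and 12.82 in low NP liver. In spleen the signals of Mcm6 were 14.87 and 15.15 for NP and 14.79 and 14.75 for low NP. The liver pools did not overlap, and both lay well under the spleen pools. The liver ratio of Mcm6 was -1.26 ± 0.18 (2.39-fold lower with NP), and the spleen ratio was 0.24 ± 0.15. The other 5 helicase subunits ran from -0.91 (Mcm5) to -0.41 (Mcm7) in liver and from 0.17 (Mcm5) to 0.25 (Mcm2) in spleen. The loaders Cdt1 and Cdc6 had liver ratios of -0.56 and -0.28. Cdt1 was among the highest members in spleen, at 0.37 ± 0.02, with signals of 13.62 and 13.76 for NP against 13.24 and 13.41 for low NP. In liver, Cdt1 gave 10.98 and 10.93 for NP against 11.34 and 11.69 for low NP.

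Geminin (Gmnn), the inhibitor of Cdt1, had the liver ratio nearest to 0. Its liver signals were 13.16 and 13.00 for NP against 12.99 and 13.18 for low NP, so the pools overlapped. Its mean liver ratio was -0.00 ± 0.18. Its spleen signals were 14.21 and 14.20 against 14.03 and 14.02, a ratio of 0.18 ± 0.00. Pcna, the sliding clamp of the replication fork, had a liver ratio of -0.46 ± 0.21 and a spleen ratio of 0.20 ± 0.20.

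The regulators of entry into S phase differed little between the liver pools. E2f1, an activating E2F factor, had signals of 8.90 and 8.78 in NP liver against 8.91 and 8.89 in low NP liver, and 8.91 and 9.03 in NP spleen against 8.66 and 9.10 in low NP spleen. All 4 pools of E2f1 lay close together, and the ratios were -0.06 ± 0.05 in liver and 0.09 ± 0.16 in spleen. A second, dimmer E2f1 probe gave -0.05 and 0.18 in liver. Ccne2, a cyclin of the G1 to S transition, had signals of 7.87 and 7.74 in NP liver against 7.87 and 7.95 in low NP liver. Its spleen signals were 8.27 and 8.62 for NP against 8.18 and 8.49 for low NP. The ratios of Ccne2 were -0.11 in liver and 0.11 in spleen. Ccne2 was dim in liver, well above background on 1 NP liver array only, and processed signals gave it a liver mean of -0.46. The related cyclin Ccne1 had a liver ratio of -0.22 and a spleen ratio of 0.36 ± 0.02, above 0 on both arrays.

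Among the cyclins, kinases and factors of G2 and mitosis, all 8 were below 0 on both liver arrays and above 0 on both spleen arrays, with medians of -0.65 and 0.20. Ccnb2, a cyclin partner of Cdk1 (probe at chr9:70439814-70439873 in mm7), had signals of 9.497 and 9.15 in NP liver against 10.17 and 10.70 in low NP liver, and 12.87 and 13.05 in NP spleen against 12.52 and 12.69 in low NP spleen. The groups did not overlap in either tissue. The liver ratio of Ccnb2 was -1.11 ± 0.44, or 2.16-fold lower, and the spleen ratio was 0.35 ± 0.01. Ccna2, the cyclin of S and G2, was not called in liver, since array 1 gave -0.45 and array 2 gave -1.58. Its signals were 8.76 and 8.29 in NP liver against 9.21 and 9.87 in low NP liver, and 11.69 and 11.75 in NP spleen against 11.21 and 11.46 in low NP spleen. With 0.38 ± 0.10, Ccna2 had the highest spleen ratio of the set.

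Plk1, a mitotic kinase, was likewise held back by array 1. Its signals were 8.84 and 8.26 in NP liver against 9.26 and 9.82 in low NP liver, and 11.21 and 11.26 in NP spleen against 11.04 and 11.05 in low NP spleen. For Plk1 the liver ratio was -0.99 ± 0.57. The kinase Aurka followed at -0.73 in liver, and Ccnb1, Melk and Cdk1, the kinase that drives mitosis, lay between -0.57 and -0.36. Foxm1, the transcription factor of this group, had a liver ratio of -0.19 ± 0.13 and a spleen ratio of 0.18. The liver value of Foxm1 depended on the processing and was -0.79 with the scanner software's processed signals.

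Of the checkpoint and anaphase genes, Cdc20 was called. Cdc20 activates the anaphase-promoting complex (probe at chr4:117809370-117809429 in mm7) and had signals of 9.54 and 9.19 in NP liver against 10.39 and 11.09 in low NP liver. Its spleen signals were 12.61 and 12.66 for NP and 12.32 and 12.57 for low NP. In liver the ratio of Cdc20 was -1.38 ± 0.53 (2.59-fold lower), and that of Ube2c, a ubiquitin-conjugating enzyme of the same complex, was -0.72. The checkpoint kinases Bub1 and Bub1b had liver ratios of -0.06 and -0.12 on array 1 and of -0.91 and -0.77 on array 2. With the scanner software's processed signals their means were -2.65 and -1.91. Ttk had the lowest spleen ratio, -0.02 ± 0.13, with signals of 7.89 and 7.98 for NP against 8.04 and 7.87 for low NP. In liver its signals were 7.59 and 7.68 against 7.60 and 7.72, where neither pool counts as measured.

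The kinetochore and chromosomal passenger genes held 2 of the 6 called members. Birc5 (survivin), a subunit of the passenger complex (probe at chr11:117964690-117964749 in mm7), had signals of 9.99 and 9.61 in NP liver against 11.17 and 11.51 in low NP liver, and 13.98 and 14.09 in NP spleen against 13.62 and 13.75 in low NP spleen. The groups did not overlap in either tissue. Birc5 thus had a liver ratio of -1.54 ± 0.36, or 2.91-fold lower, and a spleen ratio of 0.35 ± 0.01. Cenpe, a motor that aligns chromosomes (probe at chr3:135067767-135067826 in mm7), had signals of 9.19 and 8.67 in NP liver against 9.91 and 10.85 in low NP liver, and 12.76 and 12.77 in NP spleen against 12.53 and 12.65 in low NP spleen. For Cenpe the liver ratio was -1.44 ± 0.73 (2.72-fold lower), the widest distance between arrays among the called members. The other 2 Cenpe probes, which are linked to a RefSeq transcript, were dimmer and not measured in liver. The call of Cenpe thus rests on the brightest probe alone, which lacks such a link.

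Aurkb, the kinase of the passenger complex, was not called. Its signals were 8.06 and 7.87 in NP liver against 8.10 and 8.85 in low NP liver, and 8.73 and 9.65 in NP spleen against 8.83 and 9.51 in low NP spleen. The spleen pools of Aurkb overlapped (ratio 0.02 ± 0.12). Cenpf, a kinetochore protein, had a liver ratio of -0.84 ± 0.68, and Cenpa, the histone variant that marks centromeres, had -0.26.

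Of 6 genes of the spindle and of cytokinesis, 5 were measured in liver and none was called, with a median of -0.78. The lowest was Kif20a, a kinesin of cytokinesis, at -0.95 ± 0.52. Its signals were 9.21 and 8.85 in NP liver against 9.65 and 10.31 in low NP liver, and 12.03 and 11.89 in NP spleen against 11.82 and 11.79 in low NP spleen. A second probe of Kif20a gave -0.23 and -1.25 in liver. Nusap1, Prc1, Tpx2 and Kif23, which bundle or organise spindle microtubules, lay between -0.93 and -0.56. Kif11 had spleen signals of 8.45 and 8.62 for NP against 8.46 and 8.61 for low NP, a ratio of -0.00. In liver its signals were 7.71 and 7.71 against 7.74 and 7.98.

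Mki67, the Ki-67 protein that coats mitotic chromosomes (probe at chr7:132094802-132094861 in mm7), had the lowest liver ratio of the set. Its signals were 9.44 and 8.86 in NP liver against 10.89 and 11.46 in low NP liver, and 14.19 and 14.12 in NP spleen against 13.83 and 13.71 in low NP spleen. The groups did not overlap in either tissue. The liver ratio of Mki67 was -2.03 ± 0.57, or 4.07-fold lower with NP, and the spleen ratio was 0.38 ± 0.02. A second Mki67 probe gave -0.56 and -1.91 in liver and was not called. Top2a, the topoisomerase that untangles chromosomes, had a liver ratio of -0.53 ± 0.34. Of 20 further probes of the measured members, 9 were measured in liver. Of these 8 were below 0 on both arrays and none was called.

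Dim signal limits part of these values. In NP liver, 31 of 39 members were well above background on both arrays, against 37 in low NP liver and 39 in both spleen pools. Cdc6, Ccnb1, Bub1 and Top2a were measured in low NP liver and not well above background in NP liver on either array. For these genes the bound equals the measured mean over both arrays, so it sets no limit of its own. That mean was 1.22-fold, 1.4805-fold, 1.40-fold and 1.44-fold lower with NP. These values rest on array 2, since the array 1 ratios were -0.09, -0.19, -0.06 and -0.19.

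In spleen no member was called, while 6.35% of 18420 measured genes were lower and 0.0434% higher. Above 0 on both arrays were 33 of 39 members (84.6%), against 23.3% of all measured genes, with 35 above 0 on array 1 and 37 on array 2. The members' median ratio was 0.19, with 0.20 on each array, against -0.02 for all measured genes, but it turned to -0.0105 when arrays were centred on their median without loess. That centring moved the median of all genes to -0.15, so the members lay 0.14 above it there and 0.21 above it with loess. The range over members was -0.02 to 0.38. A ratio of 0.19 is a 1.14-fold difference between single pools. The order of the members was not shared by the arrays: across 39 members, array 1 and array 2 ratios correlated with r = 0.14 in spleen and, across 37, with r = 0.84 in liver. Within a tissue these points share the same pools and arrays.

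The set was next compared between tissues, within the same dye. In the NP pools, 33 of 39 members (84.6%) were at least 2-fold higher in spleen than in liver in both dyes, against 15.1% of all genes. In the low NP pools, 25 of 39 (64.1%) were, against 9.57%. With Cy5 alone the NP count was 33 and with Cy3 alone, which leaves out spleen array 1, it was 35. The median fold over members was 4.80 in the NP pools and 2.61 in the low NP pools. Levels of liver and spleen come from different arrays and were scaled to each other, so they rest on that scaling, and with the scanner software's processed signals the low NP count was 3.

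Mki67 had the largest tissue difference, 32.1-fold in the NP pools and 6.04-fold in the low NP pools, followed in the NP pools by Birc5 (18.9-fold) and Cenpe (14.2-fold). Licensing genes spanned 2.18-fold (Gmnn) to 12.1-fold (Mcm6) in the NP pools. The mean was under 2-fold for E2f1 (1.09-fold), Ccne2 (1.56-fold, above background on 1 NP liver array) and Foxm1 (1.87-fold), and Aurkb reached 2-fold in 1 dye only. Ttk and Kif11 were not well above background in NP liver on either array, so their measured differences do not place them in this order. By measured signals, dim ones included, for 36 of 39 members the pools stood in the same order, with NP liver lowest, then low NP liver, low NP spleen and NP spleen, an order shown by 29.0% of genes measured in both tissues.

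**Figure D2:**
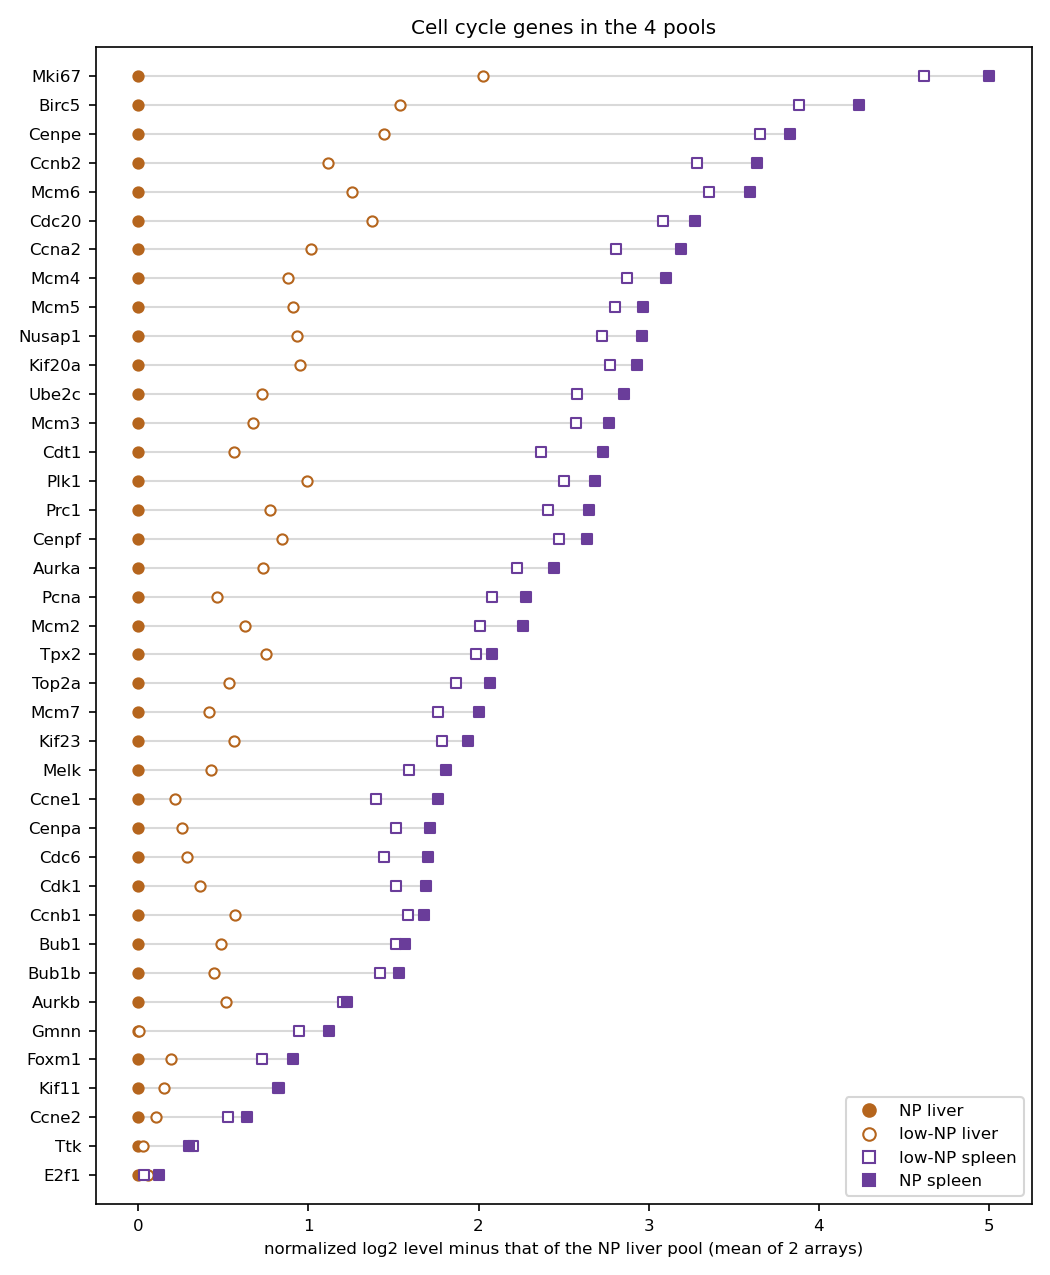
Normalized log2 level of each member in the 4 pools, minus its level in NP liver, ordered by the NP spleen value (mean of 2 arrays; circles are liver, squares spleen, filled symbols NP, open symbols low NP). Low NP liver lies to the right of NP liver for members such as Mki67 and Birc5 that are high in spleen, and all 4 pools of E2f1 lie together.

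After background correction and loess, the members with the lower liver ratios were those with the larger gap to spleen. The scanner software's processed signals moved down the measured members that were dim on both NP liver arrays. Top2a then had -2.68, Bub1 -2.65, Ccnb1 -2.60 and Cdc6 -2.35, beside -2.69 for Mki67. Several members well above background on both NP liver arrays moved down too, such as Nusap1 (-2.38) and Tpx2 (-2.14). Gmnn and E2f1 turned slightly above 0 (0.01 and 0.08). The order of the members by liver ratio thus depends on the processing. Across 37 members, the liver ratio correlated with the level in NP spleen minus that in low NP liver (r = -0.82, Spearman's rho = -0.81). The low NP liver signal enters both measures with a minus sign, which by itself gives a positive sign. Over all 16975 measured genes r was -0.52 and rho was -0.73. Of the 37 members, 33 (89.2%) were at least 2-fold higher in NP spleen than in low NP liver, against 14.9% of all measured genes, and all 6 called members were among them. Among genes with such a gap 22.5% were called lower in liver, and among the 33 members 18.2% were. Among genes without it 0.36% were called, and of the other 4 members none was, with a median of -0.15. The members' count of lower calls was thus near the share of other genes that are as much higher in spleen.

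**Figure D3:**
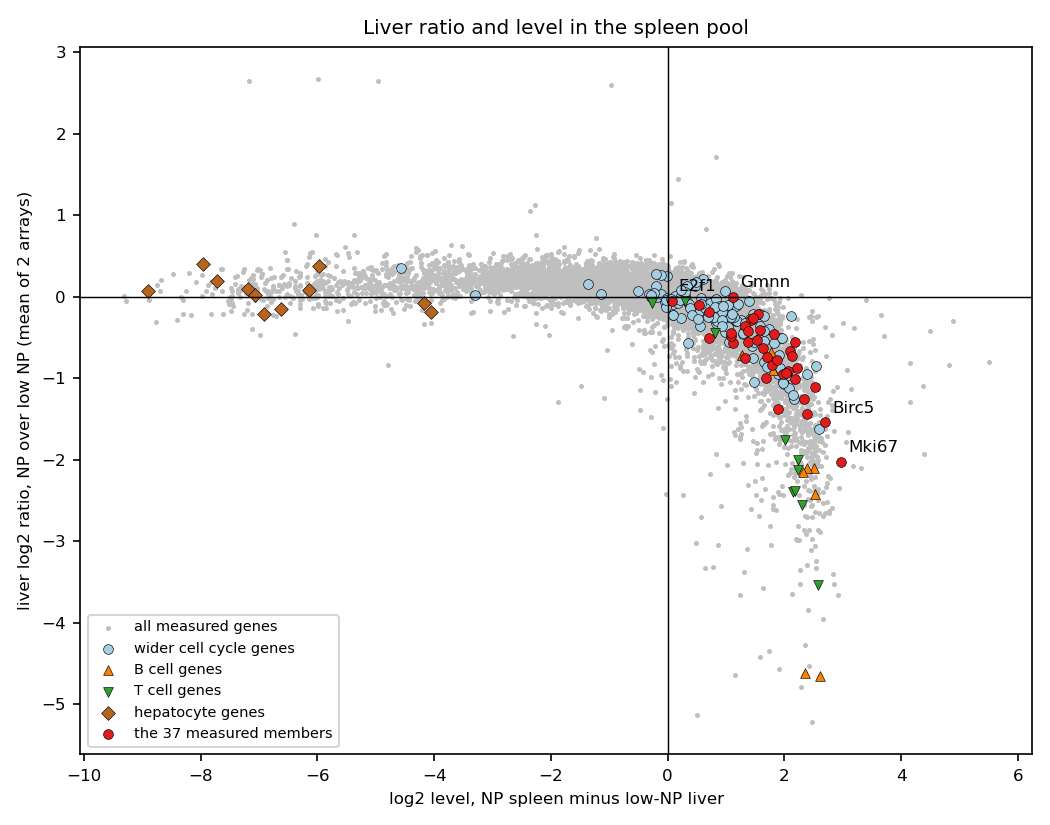
Liver log2 ratio of NP over low NP (mean of 2 arrays) against the log2 level in NP spleen minus that in low NP liver, for all measured genes (grey), the 37 measured members (red), wider cell cycle genes and markers of B cells, T cells and hepatocytes. Mki67 and Birc5 lie at the lower right and E2f1 and Gmnn near a ratio of 0, and the medians of the B and T cell markers, -2.10 and -2.06, lie below that of the members, -0.63.

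Markers of several other cell types, though not all, were lower in liver beside the members. Of 9 B cell markers 6 were called lower, with a list median of -2.10 (-1.47 on array 1 and -2.73 on array 2). Their levels ran from 7.70 to 9.63 in NP liver, where 7 of 9 were well above background on both arrays, and from 8.38 to 14.25 in low NP liver, where all 9 were. Of 10 T cell markers 7 were lower, with a median of -2.06 (-1.30 and -2.81) and levels of 7.78 to 9.15 in NP liver and 8.00 to 12.22 in low NP liver. The B cell receptor subunit Cd79b had levels of 9.63 in NP liver, 14.25 in low NP liver, 16.60 in NP spleen and 16.43 in low NP spleen. Of 8 macrophage markers 4 were lower (median -0.63), of 6 megakaryocyte markers 2 (median -0.65), and of 8 measured erythroid markers 1 (median -0.30). Of 6 plasma cell markers 2 were lower and 2 had a mean above 0 (median -0.63). None of 5 measured germinal centre B cell markers was called, with a median of -0.06. None of 11 hepatocyte markers was called in liver, but 4 passed 1.5-fold in opposite directions on the 2 arrays (0.242% of all measured genes did), with list medians of 0.64 on array 1 and -0.34 on array 2. The part of these cells in the members' liver values was not tested.

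The size of the liver difference can be set against the spleen signal of the same gene. Only genes measured in liver entered, with an NP spleen level at least 2-fold that of NP liver in both dyes. The NP spleen level also had to be at least 2-fold that of low NP liver. Genes of each list that were not high in spleen were thus left out, and the shares hold for the genes so chosen. On the linear scale, low NP liver minus NP liver came to a median of 10.9% of the NP spleen signal over 33 members, with 0.187% to 17.1% across members and medians of 4.53% on array 1 and 16.3% on array 2. For 9 B cell markers the median was 14.3% (10.7% to 18.8%), for 7 T cell markers 17.1%, for 7 macrophage markers 10.7% and for 8 erythroid markers 1.76%. The B cell share, like that of the members, was lower on array 1 (11.6%) than on array 2 (17.9%), whereas the macrophage share was 12.8% on array 1 and 10.2% on array 2.

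In spleen, other lists moved beside the members. All 12 erythroid markers were above 0 on both arrays, with a median of 0.58 (0.53 and 0.55) and 3 called higher. B cell markers had a median of 0.20 and T cell markers of 0.06, while markers of germinal centre B cells had 0.03. All 11 hepatocyte markers were called lower, with a median of -5.29: Apoa1 had levels of 10.19 in NP spleen and 15.48 in low NP spleen, against 17.10 in low NP liver. Other hepatocyte markers lay on either side of low NP liver. Fabp1 and Alb had 18.44 and 18.86 in low NP spleen against 17.21 and 18.05 in low NP liver, while Ttr had 11.92 against 13.89. These levels of the 2 tissues rest on the scaling between arrays. Exocrine pancreas markers were lower in both tissues, with 9 of 9 called in each and medians of -1.05 in liver and -2.12 in spleen. The part of all these markers' cells in the members' spleen values was not tested.

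**Figure D4:**
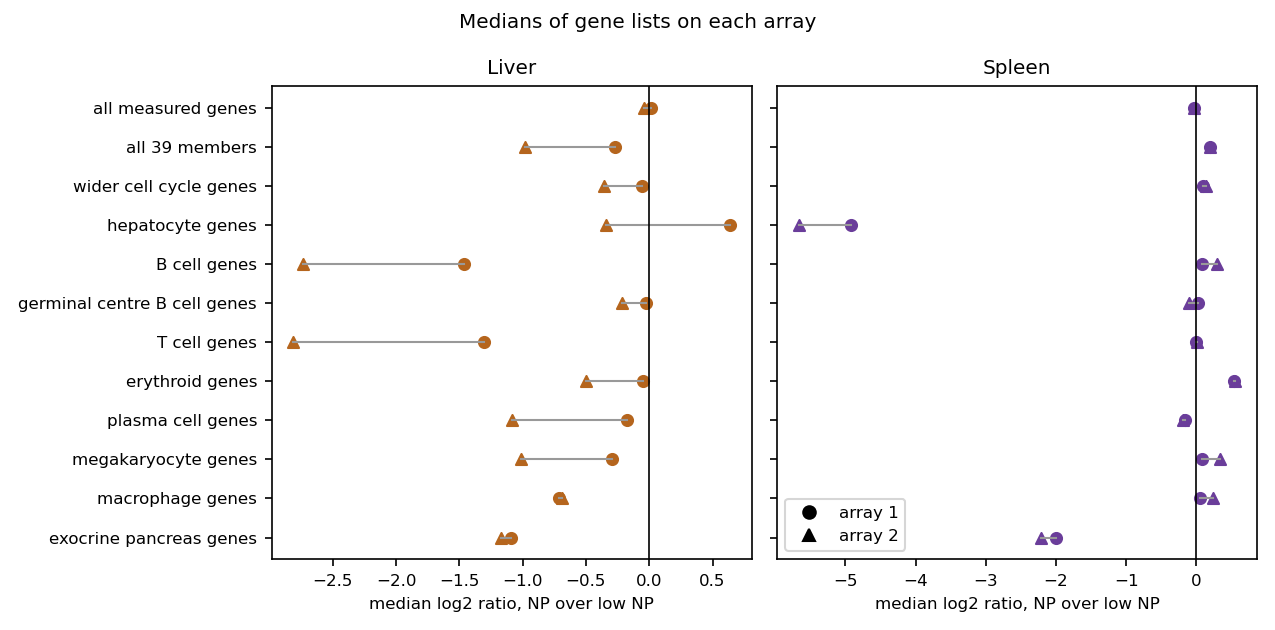
Median log2 ratio of NP over low NP of the members, of wider cell cycle genes and of cell marker lists in liver (left) and spleen (right), with circles for array 1 and triangles for array 2. In liver the members lie between all measured genes and the B and T cell lists on both arrays, and in spleen the members, at 0.20, lie under the erythroid list and far above the hepatocyte list.

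Other genes of the same processes were followed in 140 genes outside the set. In liver 9 of 129 measured genes were lower, none was higher and the median was -0.21 (-0.05 and -0.36). Over all measured genes 3.65% were called lower. All 9 were among the 53 of these genes with a level in NP spleen at least 2-fold that in low NP liver, where the share over all genes was 22.5%. They were Hmgb2, a chromatin protein of dividing cells (-1.63 ± 0.50), the phosphatase Cdc25b (-1.26 ± 0.37), the passenger complex scaffold Incenp (-1.12 ± 0.40), the replicative polymerase subunit Pold1 (-1.07 ± 0.39), the microtubule regulator Stmn1 (-1.06 ± 0.15), the cyclin Ccnd2 (-1.05 ± 0.04), the growth arrest gene Btg2 (-0.98 ± 0.25), the condensin subunit Ncapd2 (-0.86 ± 0.20) and the Cdk inhibitor Cdkn2d (-0.74 ± 0.00). Cdkn2d and Btg2 restrain the cell cycle, while the others serve its progress or division. Among groups, condensation genes had the lowest liver median, -0.75 with 2 of 9 called, and G1 regulators one of -0.09 with 1 of 21 called. The same 140 genes had a spleen median of 0.11, with none higher and 2 lower.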

How the data were processed

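Scanner files of 4 arrays on 1 slide were used. They hold the mean and local background intensity of each spot in both dyes, deposited as written by Agilent Feature Extraction 9.5.3.1 (version per the submitters' processing notes). Flags, a log10 ratio and its p-value, which covers spot error only, stand in the same deposited files. The series' deposited table holds log10 ratios that correlate with the scanner ratios at -0.992, 0.99, -0.989 and 0.998. They were therefore read as low NP over NP, on the scale of the scanner ratio, the opposite of the direction used here. Column medians were 0.03, -0.07, -0.01 and -0.04, so the table is not centred on 0. How it was made is not stated in the labels or headers.

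In limma 3.58.1 (R 4.3.3) the mean signals were corrected with normexp (offset 50) and normalized within arrays by loess, without weight for control spots (1639 per array) and outlier spots (200 to 328, controls included). Ratios were oriented as NP over low NP, and spots of 1 probe were averaged, with a within-array SD of 0.0147 to 0.0549 over 245 replicated probes. Levels per channel were taken after loess and Aquantile scaling over the 4 arrays and are comparable within a probe only. Both arrays of a tissue were taken to hold 1 pair of pools with dyes exchanged, so no test was run. The labels number pools 1 and 2 along with the dyes, so separate pools per array remain possible. The spread between mice is not in the data. The labels also mention access to a standard chow during housing.

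Probes were named through RefSeq (GRCm38.p6), otherwise by the file: the 41174 probes divide into 61 of the members, taken by the file's gene name, 22895 named by accession, 6652 by current symbol, 3108 by synonym and 8458 with the file's name. Probe positions are those of the files, in mm7. A bound compares the brighter pool with the dim probe's own signal, or with the lowest signal well above background where that is higher. Tables and figures used Python 3.11.15, numpy 2.4.6, pandas 2.3.3 and matplotlib 3.10.9. The call rule was run on simulated dye swaps with independent noise on each array. Such noise lacks the shift shared by many genes between the liver arrays, so the runs do not speak to calls under that shift.

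Members, gene lists and rules were chosen with earlier results of these data known. Members called, the 3 highest and 3 lowest uncalled members per tissue, and the 3 members with the largest and the 3 with the smallest tissue difference are given with each array's values, and the others by mean or range. Alternatives were no background correction, processed signals, median centring, other filters and folds, the median of a gene's probes, quantile scaling of levels, each array alone, leaving out genes of the other tissue, and the deposited table.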

Additional observations from a re-analysis of the deposited data

Results flagged for a closer look

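For 31 of the 37 members measured in liver (83.8%), both liver arrays were below 0 and both spleen arrays above 0, against 13.81% of 16493 genes measured in both tissues. The sign rests on small spleen ratios: with median centring, 21 of 39 members were below 0 in spleen and 18 above, against 2 and 37 here. The values given here are the spleen ratio minus the liver ratio, both log2 of NP over low NP. The difference between the tissues was not tested, since the arrays were taken as 1 pair of pools per tissue.

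The called genes had differences of 2.41 (Mki67), 1.89 (Birc5), 1.62 (Cenpe), 1.57 (Cdc20), 1.497 (Mcm6) and 1.47 (Ccnb2). Among other licensing and fork genes the values were 1.11 for Mcm4, 1.08 for Mcm5, 0.93 for Cdt1, 0.88 for Mcm2, 0.86 for Mcm3, 0.66 for Pcna, 0.65 for Mcm7 and 0.55 for Cdc6. The G1 cyclins Ccne1 and Ccne2 had 0.58 and 0.21. In the group of G2 and mitotic regulators the values were 1.40 for Ccna2, 1.18 for Plk1, 0.95 for Aurka, 0.66 for Ccnb1, 0.64 for Melk, 0.53 for Cdk1 and 0.37 for Foxm1. Of the checkpoint genes, Ube2c had 1.00 and Bub1 had 0.54. Spindle genes had 1.17 (Nusap1), 1.11 (Kif20a), 1.01 (Prc1), 0.84 (Tpx2) and 0.71 (Kif23), and Top2a had 0.73.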

How the results depend on the processing

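Members called lower in liver numbered 6, and 23 without background correction, 28 with processed signals, 28 in the deposited table, 2 with median centring, 12 at 1.3-fold, 3 at 2-fold (Mcm6, Birc5 and Mki67) and 0 of the 4 left after removing genes of the other tissue. Single arrays gave 6 to 29. The liver median was -0.63, and -1.51 with processed signals and in the deposited table, with -0.98 to -0.27 on single arrays. The spleen median was 0.19, and 0.19 without background correction, 0.33 with processed signals, 0.33 in the deposited table and -0.0105 with median centring, with 0.20 on each array. Relative to all genes, whose median those processed values moved to 0.11 in liver and 0.10 in spleen, the spleen members lay between 0.14 and 0.23 higher. Members at least 2-fold higher in spleen numbered 33 in the NP pools (20 at 4-fold) and 25 in the low NP pools (3 with processed signals, 2 at 4-fold). Calls in spleen numbered 0 in each direction under every setting run. For single members, 590 of the values recomputed stayed within the SD of the 2 arrays, 131 moved further, and no called member turned its direction. The causes were not tested. Dim signal limits the liver values of 4 members, and no value carries the spread between mice.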

Other observations

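Among the 140 cell cycle genes outside the set, 2 were called lower in spleen, and both had higher levels in liver than in spleen. Mcm10, a factor of replication initiation, had 1 probe with spleen ratios of -1.79 and -1.62 (mean -1.71 ± 0.09). Its levels were 14.77 in NP liver, 14.76 in low NP liver, 11.46 in NP spleen and 13.16 in low NP spleen, so the pool in between was low NP spleen. E2f8, a repressing E2F factor, had spleen ratios of -1.85 and -2.79 (mean -2.32 ± 0.47), with levels of 11.88 and 11.52 in NP and low NP liver and 6.96 and 9.28 in NP and low NP spleen. The probes of E2f8 disagreed: its dimmer probe, which carries the RefSeq accession, gave 0.19 and 0.14 in spleen, while the brighter one carries a cDNA accession. Neither gene was called in liver, and both stood apart from the replication genes of the set, whose highest levels were in spleen.

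No member was called in opposite directions by its arrays or by its probes.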
